A study of Homo sapiens with 4 samples.

Results

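C/D small nucleolar RNAs (C/D snoRNAs) were followed in U2OS cells that expressed a Flag-tagged form of QKI7, with the RNA co-purified by a Flag antibody set against the input RNA. The members were all genes of the deposited table whose symbol starts with SNORD and a number, without the SNORD113, SNORD114, SNORD115 and SNORD116 families of the imprinted clusters. The rule used names only and no measured value. It gave 178 genes of the 26830 in the table, and it left out the rows of those 4 families. All 178 matched a RefSeq symbol.

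U2OS is a human osteosarcoma line, and QKI7 is an isoform of QKI, an RNA-binding protein of the STAR family. All cells of both groups carried a lentiviral construct for Flag-tagged QKI7 (pmiRNA1-3 x Flag-QKI7), and GFP-positive cells were expanded before ultraviolet cross-linking, lysis and sonication. The Flag-RIP group holds 2 libraries of RNA recovered with the Flag antibody, and the input group holds 2 libraries of the same kind of lysate without antibody. Libraries were made from rRNA-depleted RNA with a stranded kit. The cells therefore carry the tagged protein above their own QKI in both groups, and a mock precipitation or cells without the tag were not analysed here. The labels do not say whether replicates 1 and 2 were separate cultures, so p-values cover only how far these samples spread, and that spread may be technical.

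C/D snoRNAs are short noncoding RNAs of the nucleolus, named after their conserved boxes C and D. Most are cut out of the introns of other genes and are bound by the proteins fibrillarin, NOP56, NOP58 and SNU13. A sequence upstream of box D or D' pairs with ribosomal RNA (rRNA) or a spliceosomal RNA and directs fibrillarin to methylate the ribose of 1 nucleotide. A few of them, U3 above all, act in the cleavage of the rRNA precursor and not as methylation guides.

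The unit throughout is TPM, a share of each library corrected for transcript length. These values keep no read depth, which is unknown here, so counting error could not be given. The synthetic ERCC spike-in RNAs took 18.9% and 25.6% of the TPM in Flag-RIP, against 2.78% and 3.89% in input, and the noncoding RNAs RN7SL1 and RN7SK also shifted by more than their replicates differed. RN7SL1 stood at 222166 and 242262 TPM in Flag-RIP, against 494338 and 462953 TPM in input. Among 8 bone and osteosarcoma markers, COL1A1 and SPARC were plainly present (113.4 and 116.4 TPM for COL1A1 in Flag-RIP, 53.8 and 83.7 TPM in input), while IBSP was listed at 0 in all 4 libraries and SP7, ALPL and COL1A2 were near 0. The 5 markers of blood, epithelial and endothelial cells summed to 1.25 and 1.01 TPM in Flag-RIP and to 0.29 TPM in both input libraries.

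Most rows of the group were low or empty. Of the 178 C/D snoRNAs, 107 had a value above 0 in at least 1 library, 71 were listed at 0 in all 4 and 43 were above 0 in all 4. Over all genes of the table, 3367 of 26830 were listed at 0 in all 4. Flag-RIP libraries held 69 and 72 C/D snoRNAs above 0, against 67 and 81 in input, so the ranges of the groups overlapped. At 1 TPM or more there were 60 and 63 C/D snoRNAs in Flag-RIP, against 30 and 39 in input. All genes showed a like difference at that level, with 11970 and 12098 genes in Flag-RIP and 6117 and 7803 in input. Between groups, 20 C/D snoRNAs were above 0 in Flag-RIP alone and 17 in input alone. No count over all genes stands beside these 20 and 17, so they describe the members only. Only 3 of those 20 were seen in both Flag-RIP libraries, namely SNORD47, SNORD128 and SNORD19, and 6 of the 17 in both input libraries. These 3 were chosen for naming after their values were seen.

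Detection followed the length of the gene. Among C/D snoRNAs shorter than 80 bases, 44 of 90 (48.9%) were above 0 in any library and 10 in all 4. The share was 66.0% (33 of 50) at 80 to 99 bases, 72.4% (21 of 29) at 100 bases or more but under 150 and 9 of 9 at 150 bases or more. Of the 9 longest, 5 are rows of the single RNA U3. The plot of detection by length shows both shares climbing over the 4 classes, as does the share with a mean of at least 1 TPM. The part of fragment size and of the length correction in these shares was not tested.

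**Figure D1:**
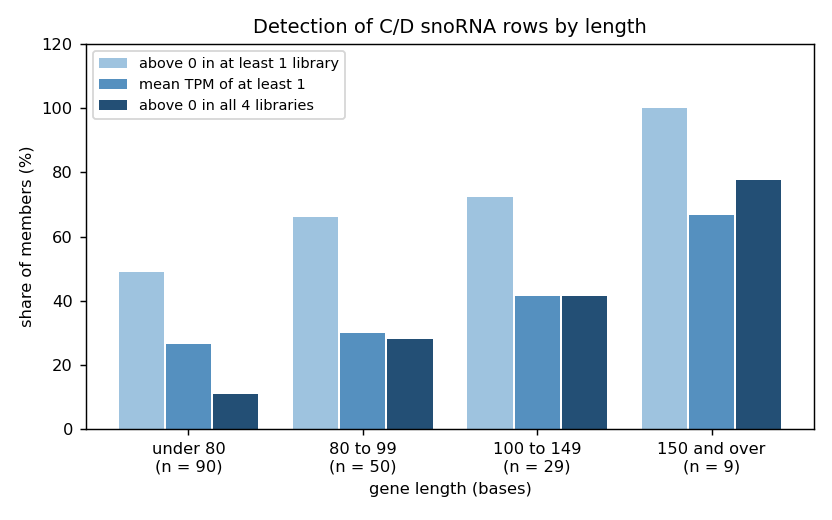
Share of C/D snoRNA genes (%, vertical axis) by gene length in bases (horizontal axis, with the number of genes in each class). Bars give the share with a TPM above 0 in any library, with a mean of at least 1 TPM, and above 0 in all 4 libraries. The share above 0 in any library is 48.9% under 80 bases and 100% at 150 bases or more, where 5 of the 9 genes are U3 rows.

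U3, the RNA at the core of the small subunit processome that cleaves the rRNA precursor, made up nearly all of the signal. The 5 U3 rows summed to 30623 and 40849 TPM in Flag-RIP, against 18851 and 29608 TPM in input. That was 94.3% and 96.6% of the summed TPM of all members in Flag-RIP, and 96.5% and 96.8% in input. The single row SNORD3A (chromosome 17, 19188016 to 19188232 in GRCh38.p14, inside no other gene of the annotation) stood at 26471 and 35098 TPM in Flag-RIP, against 16975 and 26689 TPM in input. It was the 4th most abundant gene of both Flag-RIP libraries, and the 5th and 3rd of the input libraries. The groups overlap for SNORD3A, since input replicate 2 lies above Flag-RIP replicate 1.

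As a whole, C/D snoRNAs took 3.25% and 4.23% of the TPM of the Flag-RIP libraries and 1.95% and 3.06% of the input libraries. The ratio of the means was 1.49, and both Flag-RIP values lay above both input values (exact permutation test, two-sided, p = 0.33, the smallest that 2 against 2 libraries can give). Among all genes with a mean of at least 1 TPM, 96.7% had both Flag-RIP values above both input values. Their median ratio of means was 3.31, so the ratio for C/D snoRNAs lay below that of the typical gene. The direction depends on the scale. Set against the spike-ins, the log2 ratio of Flag-RIP over input was -2.14, and after removal of the 20 most abundant rows, which include SNORD3A, it was -0.31, with the same exact p of 0.33 for each. Without the U3 rows, C/D snoRNAs took 0.186% and 0.143% of TPM in Flag-RIP, against 0.0680% and 0.0976% in input.

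The next most abundant members were SNORD141A and SNORD141B, 2 rows with identical values in every library. Each stood at 732 and 464 TPM in Flag-RIP, against 245 and 336 TPM in input. Both lie within processed copies of EEF1A1, the gene of a translation elongation factor (EEF1A1P5 and EEF1A1P13). EEF1A1 itself had 1039 and 780 TPM in Flag-RIP, against 288 and 351 TPM in input, and reads of the snoRNA cannot be told apart here from reads of that family. In all, 14 members shared their values above 0 with another member, among them SNORD3B-1 with SNORD3B-2. SNORD17, a guide of 28S rRNA methylation, followed with 71.7 and 105 TPM in Flag-RIP, against 83.6 and 144 TPM in input. The plot of abundant members shows how far SNORD3A stands above the rest.

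**Figure D2:**
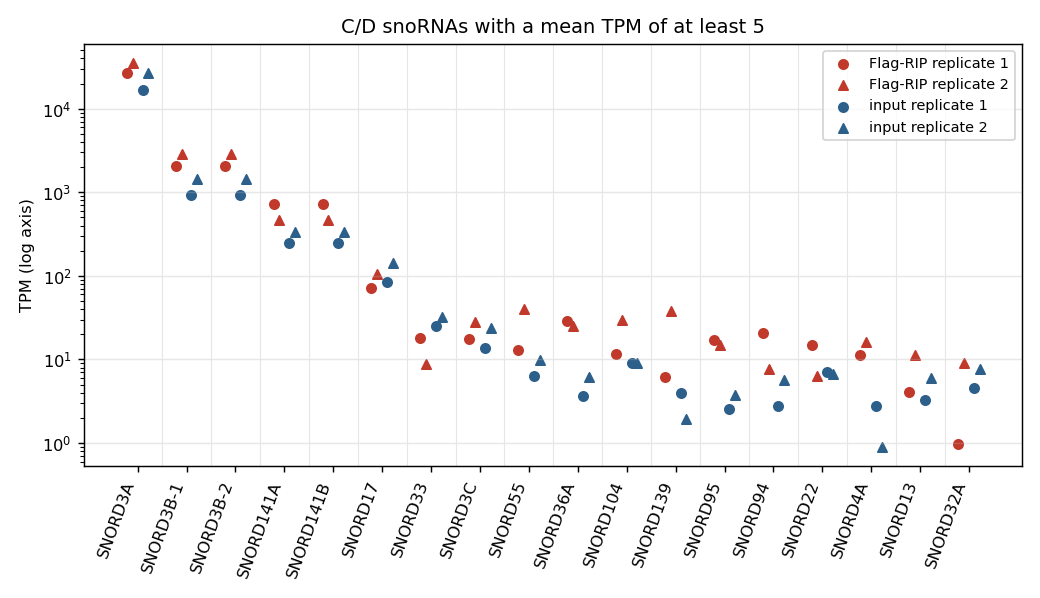
TPM (log axis) of the C/D snoRNAs with a mean of at least 5 TPM, 1 point per library, with Flag-RIP left of input for each gene. SNORD3A lies between 16975 and 35098 TPM, and SNORD17 between 71.7 and 144 TPM.

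Flag-RIP was then compared with input gene by gene, which asks which C/D snoRNAs were recovered with Flag-QKI7 more or less than other RNAs were. The median of log2(TPM + 1) lay 1.32 higher in Flag-RIP than in input libraries over the 10415 genes with a mean of at least 1 TPM. Each library was therefore shifted to a common median, and the values below are centred log2 changes, Flag-RIP minus input, with a positive value for higher in Flag-RIP. On this scale an RNA with equal TPM in both groups has a change of -1.32. Because 1 is added before the logarithm, the centred change of a low RNA is drawn toward -1.32, which can turn its direction relative to other genes. SNORD14C, for example, had a ratio of mean TPM of 3.39 and a centred change of -0.27, where the median ratio of all tested genes was 3.31. With 0.1 added in place of 1, the change of SNORD14C was 0.26. SNORD26 had a ratio of 11.4 and a change of -0.18, but that ratio rests on Flag-RIP replicate 1 (7.52 TPM, with 0 in replicate 2). With 0.1 added, the change of SNORD26 was -0.68. Tests are from limma fitted over all 10415 genes, two-sided, with Benjamini-Hochberg adjustment at 0.05.

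Of the 178 C/D snoRNAs, 57 reached a mean of 1 TPM and were tested. Among them 24 had a mean of at least 1 TPM in Flag-RIP but not in input, and 1 the other way round, so for those the filter was passed through 1 group. A member that passed only through its higher group is bound to differ, so calls on such members are given as descriptions of these libraries. Of the 57, 6 were higher in Flag-RIP, 9 were lower and 42 did not pass the test. The higher calls SNORD101, SNORD65, SNORD83A and SNORD88B are among the 24 that passed the filter through Flag-RIP alone, and the lower call SNORD35A is the 1 that passed through input alone. Over all tested genes, 16.4% were called higher and 24.4% lower, against 10.5% and 15.8% of the C/D snoRNAs. The median change of the tested C/D snoRNAs was -0.22, and that of all tested genes was -0.11. With values as deposited, 45 of the 57 were called higher and 2 lower, where 92.3% of all genes were called higher and 0.317% lower. In that fit the variance came from the trend over genes alone. Calls on values as deposited therefore do not reflect how well the replicates of a single gene agreed. Both Flag-RIP values lay above both input values for 33 of the 57 (96.7% of all tested genes) and below them for 2 (0.845%). Replicates spread widely: of the members above 0 in both libraries of a group, 23 of 48 differed by more than 2-fold between the Flag-RIP replicates and 14 of 45 between the input replicates.

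**Figure D3:**
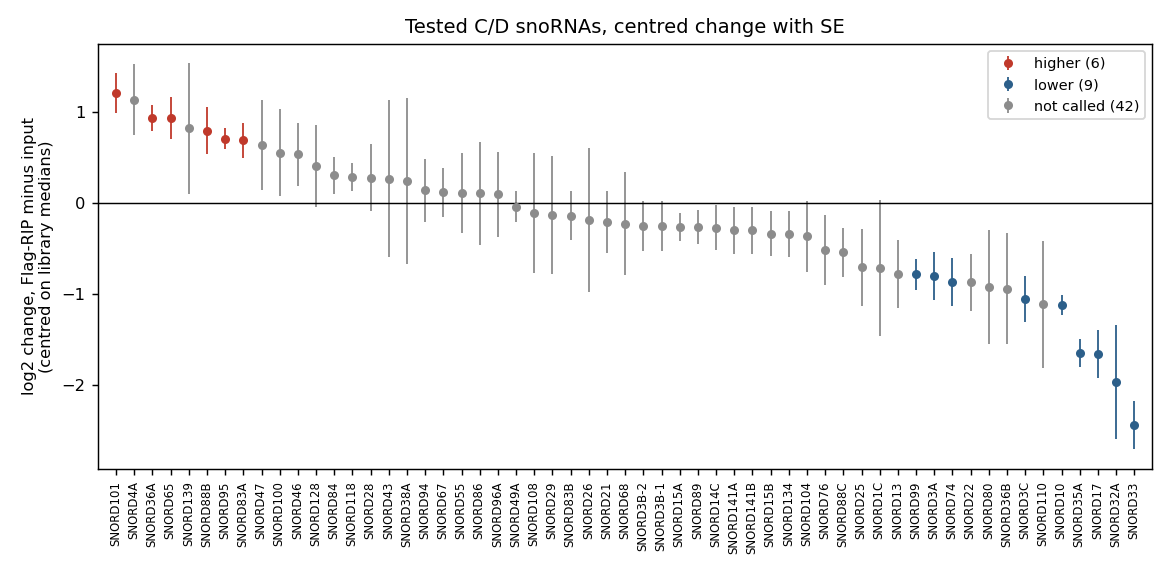
Centred log2 change (Flag-RIP minus input, vertical axis) of the 57 tested C/D snoRNAs, ordered by size, with the standard error as bars and the limma calls in colour. SNORD33 lies lowest at -2.44 and SNORD101 highest at 1.21.

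Pre-rRNA processing RNAs come first by role. Of their 8 tested rows, none was called higher, 2 were called lower and the median was -0.52. Over all tested genes, the setting for each role here and below, 16.4% were called higher and 24.4% lower. U3 copies made up 4 of the 8 rows and both lower calls, and SNORD3B-1 and SNORD3B-2 have identical values. These figures therefore describe mainly U3. SNORD3A had a change of -0.80 (limma, SE 0.26, adjusted p = 0.0417), and with values as deposited its change was 0.52 and called higher. The call on SNORD3A ended when Flag-RIP replicate 1 (adjusted p = 0.170), input replicate 1 (0.213) or input replicate 2 (0.282) was left out of the limma fit. SNORD3C, another U3 copy, had 17.4 and 28.2 TPM in Flag-RIP, against 13.9 and 24.1 TPM in input. The groups of SNORD3C overlap, and its centred change was -1.06 (limma, adjusted p = 0.0142) but 0.26 as deposited. Without input replicate 1 or input replicate 2 the limma call on SNORD3C was lost (adjusted p = 0.0660 and 0.0991).

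SNORD3B-1 and SNORD3B-2 had 2068 and 2862 TPM each in Flag-RIP, against 930 and 1448 TPM in input, and their change of -0.25 did not pass the test. Their summed TPM relative to SNORD3A was 0.156 and 0.163 in Flag-RIP, against 0.110 and 0.108 in input (exact permutation p = 0.33, two-sided, the smallest possible). The replicates of each group lie close together for this ratio and the groups do not overlap. How reads are divided among U3 copies of near-identical sequence rests on the authors' estimate. SNORD3D was listed at 0 in both Flag-RIP libraries and in input replicate 2, and at 1.43 TPM in input replicate 1.

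U8 (SNORD118), which is needed for processing of the 5.8S and 28S rRNAs, had 5.09 and 5.50 TPM in Flag-RIP, against 0.55 and 1.76 TPM in input. Its 2 groups do not overlap, but its centred change of 0.29 did not pass limma's test (adjusted p = 0.165). U13 (SNORD13), which base-pairs with 18S rRNA, had 4.07 and 11.3 TPM in Flag-RIP, against 3.23 and 5.99 TPM in input, a change of -0.78 that did not pass (limma adjusted p = 0.127). U22 (SNORD22), which is needed for 18S rRNA maturation, stood at 14.9 and 6.36 TPM in Flag-RIP, against 7.15 and 6.71 TPM in input. The U22 groups overlap, and the change of -0.87 did not pass (limma adjusted p = 0.0562). Of the 5 U14 rows, RNAs that act in 18S rRNA processing, only SNORD14C was tested. It had 3.30 and 1.69 TPM in Flag-RIP, against 0.18 and 1.29 TPM in input, with a change of -0.27 that did not pass. The other U14 rows stayed at or under 1.57 TPM.

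Guides of 18S rRNA methylation gave 10 tested members, with 2 called higher, 1 lower and a median change of 0.27. SNORD36A, an 18S guide within the ribosomal protein gene RPL7A, had 28.5 and 24.9 TPM in Flag-RIP, against 3.66 and 6.24 TPM in input. Both Flag-RIP libraries lie well above both input libraries, and the centred change was 0.93 (limma, SE 0.14, adjusted p = 0.00287), although relative to the spike-ins it was -0.24. On the spike-in scale limma called 325 of all tested genes higher and 6339 lower. SNORD65, an 18S guide within SNHG29, had 6.81 and 5.59 TPM in Flag-RIP and was listed at 0 and at 1.28 TPM in input, with a change of 0.93 (limma adjusted p = 0.0158), having passed the filter through Flag-RIP alone. SNORD4A, an 18S guide within RPL23A, had 11.4 and 16.1 TPM in Flag-RIP, against 2.74 and 0.89 TPM in input. The SNORD4A groups do not overlap, and its change of 1.14 missed the threshold (limma adjusted p = 0.0501).

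Guides of 28S rRNA methylation gave 20 tested members, with 2 called higher, 4 lower and a median of -0.23. SNORD95, within RACK1, had 16.9 and 14.8 TPM in Flag-RIP, against 2.58 and 3.76 TPM in input. Its groups are far apart, and the centred change was 0.71 (limma, SE 0.11, adjusted p = 0.00349). On the spike-in scale, where 6339 of all tested genes were called lower and 325 higher, its change was -0.34. SNORD88B had 10.0 and 4.79 TPM in Flag-RIP, against 0.86 and 0.83 TPM in input, with a change of 0.80 (limma adjusted p = 0.0415), and passed the filter through Flag-RIP alone. Among the lower calls, SNORD17 had a centred change of -1.65 (limma, SE 0.26, adjusted p = 0.00327) and of -0.34 as deposited, where it was not called. SNORD74, within GAS5, had 2.85 and 4.39 TPM in Flag-RIP, against 1.22 and 4.01 TPM in input, with a centred change of -0.87 (limma adjusted p = 0.0326) and 0.45 as deposited. The SNORD74 groups overlap. SNORD99, within SNHG12, is named here after its values had been seen, because it is the remaining lower call among these guides besides SNORD35A. It had 3.14 and 2.15 TPM in Flag-RIP, against 0.89 and 2.29 TPM in input, a centred change of -0.78 (limma adjusted p = 0.00944) and 0.53 as deposited.

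Guides of spliceosomal RNAs gave 3 tested members. SNORD10, a guide of U6 RNA within EIF4A1, had 5.12 and 5.59 TPM in Flag-RIP, against 3.83 and 5.31 TPM in input. Its TPM were nearly equal in the groups, which on the centred scale is a change of -1.12 (limma, SE 0.11, adjusted p = 0.000885) and as deposited one of 0.20 that was not called. SNORD94 and SNORD67 did not pass the test. Among the 13 tested members with no class given, SNORD101 and SNORD83A were called higher. SNORD101, within RPS12, had 8.18 and 4.20 TPM in Flag-RIP and was listed at 0 and at 0.43 TPM in input, with a change of 1.21 (limma, SE 0.22, adjusted p = 0.00519). SNORD83A, within RPL3, had 4.18 and 6.44 TPM in Flag-RIP, against 0.45 and 0.65 TPM in input, with a change of 0.69 (limma adjusted p = 0.0243). Both SNORD101 and SNORD83A passed the filter through Flag-RIP alone.

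Leaving out a library moved the calls of members and of all genes. Such a fit has 1 group of a single library, which is assumed to vary like the other group. Without either Flag-RIP replicate, the variance also came from the trend over genes alone, so the spread of a gene's own replicates did not enter. Without input replicate 1, calls over all genes numbered 332 higher and 322 lower, against 1703 and 2545 with all 4 libraries. In that fit 0 of the 6 higher members passed in limma and 1 other member, SNORD4A, did (adjusted p = 0.0212), with adjusted p = 0.0506 for SNORD36A, 0.0612 for SNORD95, 0.0725 for SNORD101, 0.106 for SNORD65, 0.115 for SNORD88B and 0.116 for SNORD83A. Their changes stayed positive, between 0.53 for SNORD65 and 1.15 for SNORD101. Without input replicate 2, SNORD83A and SNORD88B were lost and the other 4 were kept. Of the 9 lower calls, SNORD33, SNORD35A, SNORD17 and SNORD10 passed in each of these 4 fits (SNORD35A having passed the filter through input alone), and 6 of 9 were kept without input replicate 1 and 4 of 9 without input replicate 2. The last setting also lost SNORD74 (limma adjusted p = 0.22) and SNORD99. In plain TPM, 4 of the 9 lower members had a lower mean in Flag-RIP than in input, and all 9 had a ratio of means between 0.464 and 1.66, below that median ratio of 3.31.

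The snoRNAs of RPL13A held 3 of the 4 lowest changes. RPL13A encodes a protein of the large ribosomal subunit, and its introns hold 4 members, all on chromosome 19 between 49489966 and 49491260 in GRCh38.p14. SNORD33, an 18S guide, had 18.1 and 8.78 TPM in Flag-RIP, against 25.4 and 32.4 TPM in input. SNORD35A, a 28S guide, had 0.87 and 0.89 TPM in Flag-RIP, against 1.12 and 1.63 TPM in input. These are the 2 tested C/D snoRNAs with both Flag-RIP libraries below both input libraries, and their centred changes were -2.44 (limma, SE 0.26, adjusted p = 0.00111) and -1.65 (SE 0.16, adjusted p = 0.000762). SNORD35A passed the filter through input alone, the group where it is high, so its values are a description. Untested members also lay lower in Flag-RIP, among them the 6 seen in both input libraries and in no Flag-RIP library. SNORD32A, a guide of both 18S and 28S rRNA, had 0.98 and 9.05 TPM in Flag-RIP, against 4.61 and 7.66 TPM in input. Its groups overlap and its Flag-RIP replicates differ by 9.23-fold. The change of -1.96 (limma adjusted p = 0.0392) was -0.75 without Flag-RIP replicate 1, and it did not pass without input replicate 1 (adjusted p = 0.170) or input replicate 2 (0.169). SNORD34, a 28S guide, was at 1.96 TPM in Flag-RIP replicate 1 and listed at 0 elsewhere, and was not tested.

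The RPL13A gene itself also had a lower centred change. It stood at 342 and 340 TPM in Flag-RIP, against 211 and 236 TPM in input, a change of -0.71 (limma adjusted p = 0.0326) and 0.61 as deposited. The summed TPM of its snoRNAs relative to the gene was 0.0639 and 0.0550 in Flag-RIP, against 0.148 and 0.176 in input. The ratio of the means was 0.367. RPL13A was taken up for the low changes of its snoRNAs and SNORD33 makes up most of the sum, so this ratio restates those changes and was not tested.

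The same measure was taken for other genes that contain members. SNHG1 and GAS5 are noncoding host genes whose introns carry several C/D snoRNAs. SNHG1 had 23.5 and 23.7 TPM in Flag-RIP, against 1.46 and 2.26 TPM in input, a centred change of 1.80 (limma adjusted p = 0.000181). Of its 8 C/D snoRNAs 5 were tested, with changes between -0.87 (SNORD22) and 0.28 (SNORD28), and none passed. Their summed TPM over that of SNHG1 was 1.47 and 0.673 in Flag-RIP, against 7.34 and 4.37 in input, 5.46 times as high in input. SNHG1 itself was called higher on the centred scale, and none of the snoRNAs it contains was. GAS5 had 29.6 and 29.3 TPM in Flag-RIP, against 10.5 and 13.8 TPM in input, and its centred change of -0.09 did not pass. Of its 10 C/D snoRNAs 4 were tested and SNORD74 was called lower, and the ratio of snoRNA to gene overlapped between the groups, at 0.424 and 0.425 in Flag-RIP against 0.339 and 0.468 in input.

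In RPL3, which encodes another protein of the large subunit, the snoRNA ratio lay the other way. It was 0.0274 and 0.112 in Flag-RIP, against 0.0201 and 0.0191 in input. Both Flag-RIP libraries lie above both input libraries, with a wide gap between the Flag-RIP replicates. These ratios are descriptions of the libraries, and containing genes were found by coordinates without regard to strand.

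**Figure D4:**
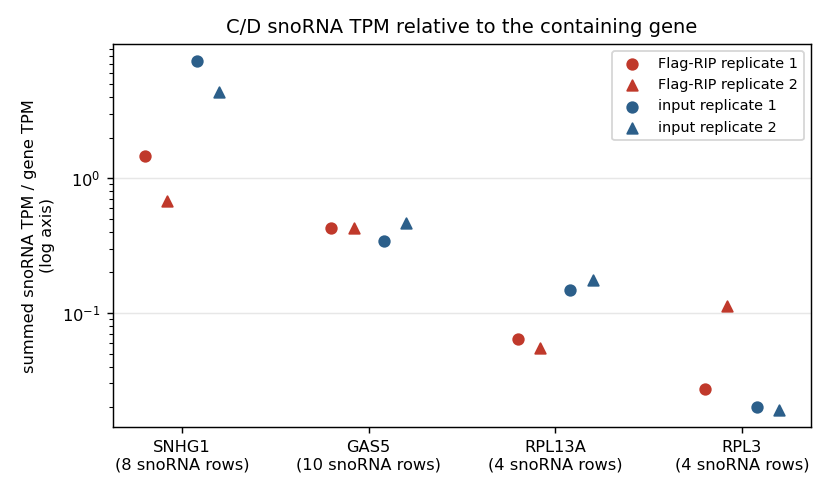
Summed C/D snoRNA TPM divided by the TPM of the containing gene (log axis) in each library, for SNHG1, GAS5, RPL13A and RPL3, with Flag-RIP left of input. Flag-RIP lies below input for SNHG1 (1.47 and 0.673 against 7.34 and 4.37) and RPL13A, and above input for RPL3.

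Pairs were formed of a tested snoRNA and a tested containing gene that is protein-coding or a long noncoding RNA gene. Over these 46 pairs (26 genes), the snoRNA change and the gene change had Pearson's r of -0.15 and Spearman's rho of -0.14. These are descriptions across genes that share libraries and containing genes. The snoRNA lay above its gene in 25 pairs and below it in 21, with a median difference of 0.10 and a range of -2.67 to 2.36 on the log2 scale. SNORD88B and SNORD88C, which lie within a tested pseudogene, were left out of the pairs. Their differences from it were 1.24 and -0.09. The plot of snoRNA against gene shows the SNHG1 points far below the line of equal change.

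**Figure D5:**
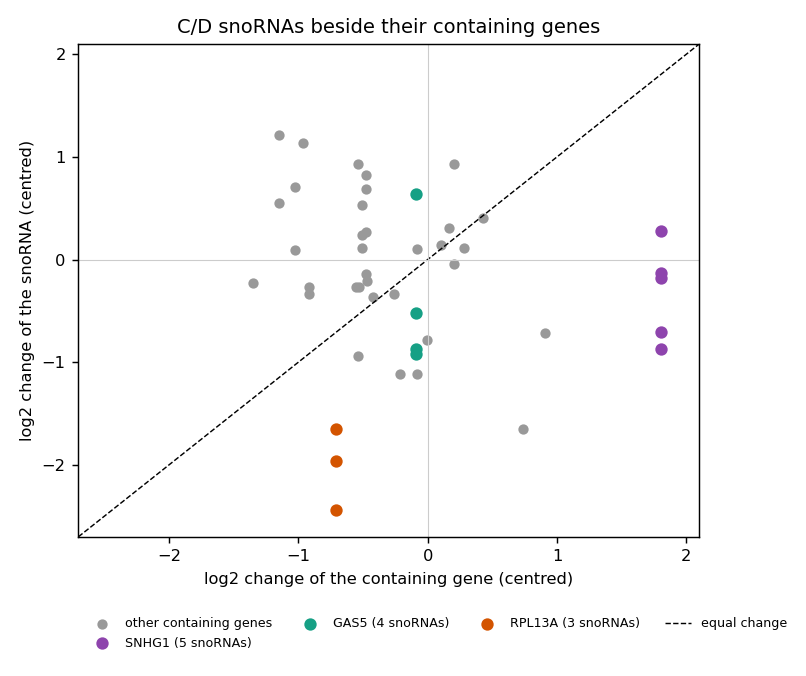
Centred log2 change of the C/D snoRNA (vertical axis) against that of its containing gene (horizontal axis) for the 46 pairs. Tested snoRNAs without a tested protein-coding or long noncoding containing gene are not shown. The SNHG1, GAS5 and RPL13A snoRNAs are in colour, with a dashed line of equal change. All 5 SNHG1 snoRNAs and all 3 RPL13A snoRNAs lie below the line.

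Other classes of small nucleolar RNA give the setting. Of the 133 H/ACA snoRNA rows (SNORA), which guide the conversion of uridine to pseudouridine, 79.7% were above 0 in any library. Their median length was 134 bases, against 79 for the C/D snoRNAs. At 100 bases or more but under 150, 80.0% (88 of 110) were above 0, against 72.4% (21 of 29) of the C/D snoRNAs. Of the 61 tested H/ACA rows, 4 were called higher and 27 lower, with a median centred change of -0.51, against 6 higher and 9 lower among the 57 C/D snoRNAs. Over all tested genes 16.4% were called higher and 24.4% lower. Within that length class, 2 of 50 tested H/ACA rows were called higher and 21 lower, against 0 and 1 of 12 C/D snoRNAs. Of the 28 Cajal body RNAs (SCARNA), 16 were tested, with 5 called higher and 4 lower. The difference between these classes was not tested.

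The mRNAs of the proteins of C/D snoRNA particles were taken from 3 lists. Of the 4 core proteins 1 was called higher and 1 lower. SNU13, which binds the box C/D turn first, had 25.7 and 20.3 TPM in Flag-RIP, against 3.88 and 5.23 TPM in input, and rose by 0.79 on the centred log2 scale (limma adjusted p = 0.00437). The mRNA of fibrillarin, the methyltransferase (FBL), had 43.9 TPM in both Flag-RIP libraries, against 22.6 and 27.99 TPM in input, with a centred change of -0.54 (limma adjusted p = 0.0288) and 0.78 as deposited. NOP56 (-0.08) and NOP58 (-0.15) did not pass. Of 11 assembly factors 8 were tested, with 0 called higher and 5 lower and a median of -0.52, where 24.4% of all genes were called lower. The lowest were NOPCHAP1 (-0.98), a chaperone of NOP58, and PIH1D1 (-0.73), a subunit of the R2TP complex. The highest, TGS1, which makes the cap of U3, and COIL, the coilin of Cajal bodies, did not pass (0.10 and -0.07).

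Of 30 proteins of the U3 particle and the small subunit processome 29 were tested, with 2 called higher and 9 lower. WDR75 had 6.87 and 5.85 TPM in Flag-RIP, against 0.71 and 1.13 TPM in input, with a change of 0.63 (limma adjusted p = 0.00355), and PDCD11 had a change of 0.36 (limma adjusted p = 0.0349). The lowest were IMP3 (-0.70), which helps U3 pair with the rRNA precursor, and DCAF13 (-0.62). Over the 3 protein lists, 3 of 41 tested mRNAs were called higher and 15 lower, with a median of -0.22, against 16.4% and 24.4% of all genes and a median of -0.11. With values as deposited, 38 of the 41 were called higher and 0 lower in limma. Without input replicate 1, 0 were called in either direction in limma, and without input replicate 2, 1 was called higher and 2 lower.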

How the data were processed

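The values are TPM of 1 deposited table, made by the authors with STAR and RSEM 1.2.31 on GRCh38, per the submitters' processing notes. Their annotation, strand setting and filters were found in no source used here. Each library sums to 1000000 within rounding, over 26830 genes and 92 spike-in rows, which stayed in the total and out of the tests. Genes with a mean of at least 1 TPM over the 4 libraries (10415) were tested on log2(TPM + 1) with limma 3.58.1 in R 4.3.3 (eBayes with a trend), each library shifted to a common median, with 2 residual degrees of freedom and a prior of 5.72. The prior was infinite with values as deposited, without the 20 most abundant rows, scaled to the spike-ins, with no filter and without either Flag-RIP library. In those fits the variance came from the trend alone, so the spread of a gene's own replicates did not enter its p-value. The script was tested on simulated data. Summed shares and ratios were compared by exact permutation of the 4 libraries.

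The members, roles, protein lists and tests were chosen with earlier results of these data known. Roles come from textbook assignments. Named members are all U3, U8, U13, U14 and U22 rows, those in SNHG1 or GAS5, the 10 highest and 10 lowest changes, the 5 most abundant of each group, and up to 5 seen in 1 group alone. Named proteins are the 4 core proteins and the 2 highest and 2 lowest of the other lists. Containing genes and coordinates are from RefSeq (GRCh38.p14). Alternatives were other scalings, pseudocounts, filters and variance settings, a replicate block, and leaving out each library. Sequences of the snoRNAs were not used here. 1 containing gene is not reported here.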

Additional observations from a re-analysis of the deposited data

How the results depend on the processing

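Residual degrees of freedom were 2 and depth is unknown, so low members are uncertain. Directions depend on the scale: the share of C/D snoRNAs in TPM (log2 ratio 0.60) became -2.14 relative to the spike-ins and -0.31 with the 20 most abundant rows removed, which takes SNORD3A, SNORD3B-1 and SNORD3B-2 out of the members as well as changing the total. Over all genes, higher and lower calls (1703 and 2545) became 9608 and 33 as deposited, 325 and 6339 scaled to the spike-ins, 3748 and 730 without the 20 most abundant rows, 7737 and 11882 with no filter and 1025 and 1171 at a mean of at least 5 TPM. Member calls (6 and 9) became 45 and 2, 9 and 31, 19 and 10, 40 and 102, and 2 and 3 under the same settings, 4 and 6 under quantile normalization or robust variance, 7 and 6 at pseudocount 0.1, 6 and 13 at pseudocount 5, and 5 and 7 with no variance trend. With no filter, members listed at 0 in all libraries take the shift of the median, which adds lower calls. Protein list calls (3 and 15) became 38 and 0, 0 and 35, 6 and 3, 22 and 0, and 2 and 6 under those first 5 settings, and 2 and 10 under quantile normalization, 2 and 14 at pseudocount 0.1 and 5 and 13 at pseudocount 5.

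The median member change (-0.22) was 1.09, -0.72, 0.32, -0.54 and -0.36 under the first 5 settings, 0.085 under quantile normalization, and -0.21 and -0.11 with pseudocounts of 0.1 and 5. The median snoRNA minus gene difference (0.10) was 1.02 scaled to the spike-ins, 0.71 without the 20 most abundant rows, 0.34 at a mean of at least 5 TPM, -0.14 under quantile normalization, and 0.69 and -0.36 with pseudocounts of 0.1 and 5. The cause of these moves was not tested.

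With the replicate number as a block, members had 7 higher and 14 lower calls (SNORD3A was lost, SNORD4A was gained as higher with limma adjusted p = 0.0140, and SNORD13, SNORD22, SNORD25, SNORD36B, SNORD76 and SNORD88C were gained as lower with 0.0104, 0.00218, 0.000959, 0.0249, 0.0284 and 0.0337), all genes 1720 and 2457, and protein lists 2 and 13. The deviations of same-numbered libraries had a correlation of -0.067, and no label says that they share a culture.

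Leaving out each library in turn, which leaves 1 group with a single library assumed to vary like the other, gave 332 to 2294 higher and 322 to 3184 lower genes, 1 to 20 higher and 4 to 25 lower members, and 0 to 4 higher and 0 to 19 lower protein mRNAs, with the lowest gene counts without input replicate 1. The median member change was -0.37 to -0.028, the median difference -0.11 to 0.26 and the log2 ratio of the share 0.28 to 0.92.

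Single members changed sign against the centred log2 change of the main fit as follows. Libraries were not shifted to a common median as deposited, without the 20 most abundant rows or scaled to the spike-ins. Quantile normalization gave all libraries the same distribution over the tested genes, and so a common median. As deposited: SNORD3A 0.52, SNORD3B-1 and SNORD3B-2 1.07, SNORD3C 0.26, SNORD13 0.54, SNORD22 0.45, SNORD14C 1.05, SNORD10 0.20, SNORD110 0.21, SNORD36B 0.38, SNORD80 0.40, SNORD141A and SNORD141B 1.02, SNORD25 0.61, SNORD26 1.14, SNORD29 1.19, SNORD74 0.45, SNORD76 0.80 and SNORD108 1.21. Under quantile normalization they were SNORD3B-1 and SNORD3B-2 0.29, SNORD141A and SNORD141B 0.37, SNORD26 0.26, SNORD29 0.68 and SNORD108 0.70. Without the 20 most abundant rows they were SNORD14C 0.85, SNORD26 0.20, SNORD29 2.37, SNORD76 0.035 and SNORD108 2.40. Scaled to the spike-ins they were SNORD118 -0.24, SNORD95 -0.34, SNORD139 -0.21, SNORD36A -0.24, SNORD26 0.19, SNORD28 -0.16, SNORD29 0.76 and SNORD108 0.78. With a pseudocount of 0.1 they were SNORD14C 0.26, SNORD29 0.99 and SNORD108 1.02, and with a pseudocount of 5 SNORD3B-1 and SNORD3B-2 0.40, SNORD141A and SNORD141B 0.34 and SNORD128 -0.073. With no filter they were SNORD3B-1 and SNORD3B-2 0.53, SNORD14C 0.51, SNORD141A and SNORD141B 0.48, SNORD25 0.070, SNORD26 0.59, SNORD29 0.64, SNORD76 0.26 and SNORD108 0.67. Over the 4 fits that leave out 1 library, the members that crossed 0 were SNORD3B-1 and SNORD3B-2 -0.52 to 0.023, SNORD14C -0.57 to 0.031, SNORD110 -2.46 to 0.24, SNORD36B -1.99 to 0.11, SNORD80 -2.11 to 0.27, SNORD100 -0.35 to 1.45, SNORD47 -0.24 to 1.52, SNORD139 -0.44 to 2.08, SNORD26 -1.69 to 1.32, SNORD28 -0.42 to 0.97, SNORD29 -1.28 to 1.02, SNORD76 -1.13 to 0.10, SNORD43 -1.36 to 1.90, SNORD128 -0.37 to 1.19 and SNORD108 -1.28 to 1.06. The cause was not tested.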

Other observations

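The rule left 5 C/D snoRNAs of the imprinted SNHG14 locus among the members. SNORD108 had 4.35 TPM in Flag-RIP replicate 1 and was listed at 0 in the other libraries. SNORD109A and SNORD109B, 2 rows with identical values, had 0.95 TPM in Flag-RIP replicate 2 and were listed at 0 elsewhere. SNORD107 and SNORD64 reached at most 0.03 TPM in any library. SNORD108 alone was tested. It did not pass on the centred scale and was called higher with values as deposited (limma adjusted p = 3.27e-10), and it passed the filter through that 1 library. The fit as deposited had an infinite prior, so the spread between its own replicates did not enter that p-value. Its standard error was 0.18 there and 0.66 in the main fit.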
